A study of Mus musculus with 13 samples.

Results

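The 10 genes described here encode the mouse machinery that fuses and divides mitochondria, together with the proteases that cut its inner membrane dynamin OPA1. They were chosen by name, 10 of the 47937 genes in the table of counts, with no condition on their levels. Opa1, Mfn1 and Mfn2 act in fusion, Oma1 and Yme1l1 are the OPA1 proteases, Dnm1l is the fission dynamin, and Fis1, Mff, Mief1 and Mief2 are its receptors on the outer membrane. The RNA came from sorted thymocytes without CD4 or CD8, called double negative (DN). DN3 cells lie before and DN4 cells after β-selection, the checkpoint for a working T cell receptor β chain. The mice were C57BL/6 animals 6 weeks of age, either WT;Lck-Cre+ (Wt) or Opa1fl/fl;Lck-Cre+. All mice thus carried the Lck-Cre transgene, which expresses Cre recombinase in early T lineage cells. The libraries labelled as Opa1 knockout are called KO-labelled here. There were 3 KO-labelled and 3 Wt DN3 libraries and 3 KO-labelled and 4 Wt DN4 libraries, 13 libraries from 7 mice. Both stages were available for KO45, KO49, KO51, WT05, WT46 and WT48, and WT40 gave DN4 only, where a number shared by 2 labels was read as 1 mouse. In the files a gene has a single count per library, so the loss of floxed exons from an otherwise retained transcript could not be seen.

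Mitochondria fuse in separate steps. The mitofusins MFN1 and MFN2 tether and fuse the outer membranes, and OPA1 fuses the inner membranes and shapes the cristae. OMA1 and the i-AAA protease YME1L cleave long OPA1 into short forms, OMA1 mainly under mitochondrial stress. Fission needs the cytosolic GTPase DRP1, encoded by Dnm1l, which is recruited to the outer membrane by MFF, by MiD51 and MiD49 (encoded by Mief1 and Mief2) and by FIS1.

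In GENCODE M21 on GRCm38, Opa1 (ENSMUSG00000038084.16) lies at chr16:29579334-29654884 on the plus strand, with 7.88 kb of merged exons. The other fusion genes are Mfn1 at chr3:32529465-32579239 and Mfn2 at chr4:147873599-147904704, and the protease genes are Oma1 at chr4:103313812-103371868 and Yme1l1 at chr2:23156369-23199260. The fission genes are Dnm1l at chr16:16312230-16358959, Fis1 at chr5:136953275-136966234, Mff at chr1:82724890-82752394, Mief1 at chr15:80234018-80253371 and Mief2 at chr11:60728398-60732951. Exons of Dnm1l and Mff overlap exons of a gene on the opposite strand, and Mief1 shares exon sequence with a gene on its own strand. Counts of these 3 genes are less certain, since the strand setting of the counting is not given in the sources used here.

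RefSeq promoter windows, 250 bases before to 50 after an annotated start on GRCm38.p6, were found for all 10 genes. The 250 upstream bases are shown for Opa1, the gene targeted in these mice, and for Fis1 and Mief2, fission receptor genes that were higher in DN4 than in DN3 in every mouse with both stages. Capitals mark matches, on either strand, to SP1 (GGGCGG), NRF1 (the letters GCGCA followed directly by their reverse complement), ETS (CCGGAAG) or the E-box (CACGTG). The regions are chr16:29579084-29579333 for Opa1, chr5:136953025-136953274 for Fis1 and chr11:60728148-60728397 for Mief2, each on the plus strand.
Opa1: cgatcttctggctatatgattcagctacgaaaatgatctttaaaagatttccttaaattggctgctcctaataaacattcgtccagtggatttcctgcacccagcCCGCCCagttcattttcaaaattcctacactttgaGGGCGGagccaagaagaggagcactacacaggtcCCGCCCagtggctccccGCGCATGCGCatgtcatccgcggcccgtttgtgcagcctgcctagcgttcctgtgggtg
Fis1: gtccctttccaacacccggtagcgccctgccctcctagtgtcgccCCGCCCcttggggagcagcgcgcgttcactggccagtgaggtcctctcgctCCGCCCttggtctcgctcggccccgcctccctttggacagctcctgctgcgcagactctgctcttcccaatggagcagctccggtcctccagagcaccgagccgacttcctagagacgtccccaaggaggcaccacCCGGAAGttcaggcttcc
Mief2: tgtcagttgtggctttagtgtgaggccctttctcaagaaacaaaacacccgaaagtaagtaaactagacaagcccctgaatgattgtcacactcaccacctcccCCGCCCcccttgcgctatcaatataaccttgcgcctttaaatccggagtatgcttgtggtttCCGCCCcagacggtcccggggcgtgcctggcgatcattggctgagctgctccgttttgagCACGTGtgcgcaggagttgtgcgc
The SP1 letters were present in a window of each of the 10 genes, against 38.2% of the 27025 genes in the table and 35.7% of its 32851 windows. The NRF1 letters were found for Opa1 and for no other of the 10, against 1.07% of all genes and 0.971% of all windows. The ETS letters were found for Mfn1, Yme1l1, Dnm1l, Fis1 and Mief1, against 9.93% of all genes and 8.86% of all windows. The E-box was found for Mief2, against 8.09% of genes and 7.15% of windows, and the RBPJ letters GTGGGAA for Dnm1l, against 7.25% and 6.38%. Some genes have several windows, and no binding was measured.

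Libraries held 5926848 to 14148661 counts. One library stood apart. In the DN3 library of WT05, 39.05% of counts fell on ribosomal RNA-like genes, against 0.390% to 1.59% in the other libraries, and the scaling factor from the trimmed mean of M values (TMM) was 0.578. It held 15 counts of Mief2 and 39 of Oma1, so fold changes of the 10 genes that it moved are also given without it. Levels are given in CPM, the count of a gene relative to the TMM-scaled size of its library. Summed DN3 markers stood at 2050 to 2740 CPM in DN3 and 651 to 2020 in DN4, and immature single positive and double positive markers at 122 to 176 and 385 to 3000. Of the DN3 markers, Il2ra stood at 727 to 1340 CPM in DN3 and 9.78 to 24.1 in DN4. Ptcra and Hes1 did not overlap between the stages either, and Rag1 (606 to 1010 and 251 to 1590 CPM), Dtx1 and Cd3e did. All 6 of the DN3, 5 of the double positive and 8 of the B-cell markers had counts in each group. The B-cell list had a summed level of 49.2 to 81.4 CPM in DN3 and 366 to 4090 in DN4. Stromal markers stood at 68.5 to 162 CPM in DN3, with the keratin gene Krt8 at 0, and at 20.2 to 36.6 in DN4. The DN3 stromal sum was mostly Pdgfrb (51.8 to 104 CPM) and Epcam (16.7 to 58 CPM). Myeloid markers reached 33.6 CPM at most, erythroid markers 5.68 CPM, γδ T markers 503 to 1400 CPM and NK markers 218 to 435 CPM, with the NK receptor genes Ncr1 and Klrb1c at 0 in DN3. The NK sum was mostly Gzma, at 179 to 360 CPM.

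Opa1 counts did not separate the genotypes. In DN3, Opa1 stood at 88.6, 93.8 and 89.55 CPM in the KO-labelled libraries KO45, KO49 and KO51, and at 111.8, 91.95 and 91.1 CPM in the Wt libraries WT05, WT46 and WT48. In DN4 it stood at 77.0, 81.45 and 87.95 CPM in KO-labelled libraries and at 90.6, 93.8, 86.6 and 85.1 CPM in the Wt libraries WT05, WT40, WT46 and WT48. The genotypes overlapped at each stage, and the Wt DN3 mean was raised by WT05. The KO-labelled to Wt log2 fold change was -0.12 in DN3 (SE 0.133, 95% interval -0.425 to 0.184, edgeR adjusted p = 1) and -0.08 in DN4 (SE 0.0881, interval -0.285 to 0.118, adjusted p = 0.945). The intervals reach down to 0.745 and 0.8205 of the Wt level, so a larger loss of whole-gene counts lay outside them. Without the DN3 library of WT05 the DN3 value was -0.016. In a sorted population, fewer cells of a type and less RNA per cell cannot be told apart.

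**Figure D1:**
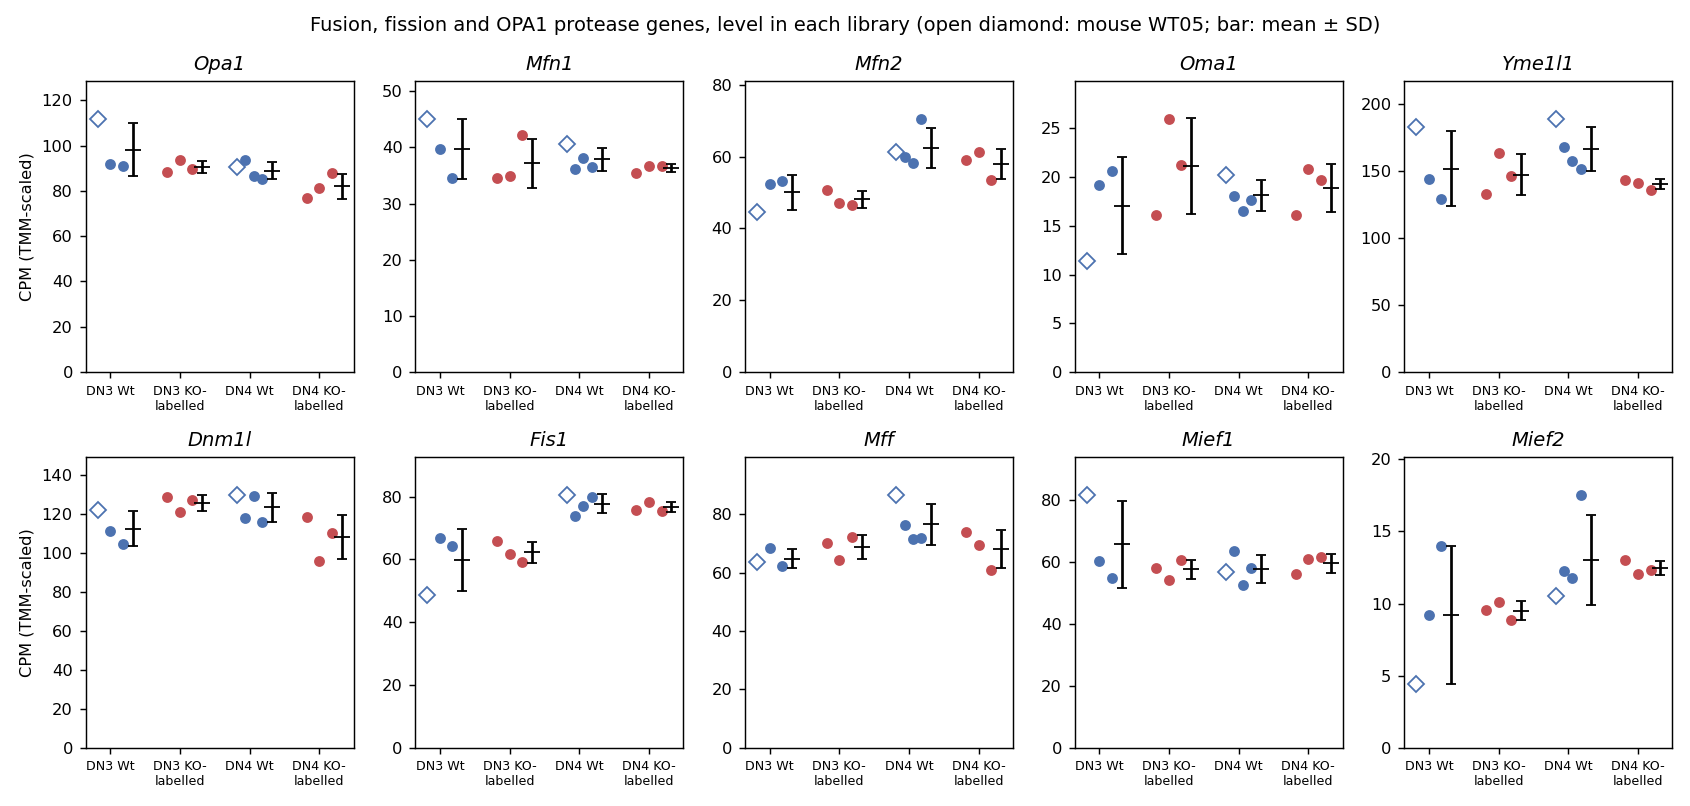
Level of each of the 10 genes in each library, in CPM on TMM-scaled library sizes, with 1 panel per gene and the 4 groups along the horizontal axis. Points are libraries, open diamonds the mouse WT05 and bars the mean ± SD of a group, and Opa1 in KO-labelled libraries (77.0 to 93.8 CPM) lies within or just below the range of Wt libraries (85.1 to 111.8 CPM).

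Levels of different genes were compared per length, as CPM per kb of merged exons (RPKM). Fis1 ranked highest, at 40.7 ± 5.62 RPKM (mean ± SD over 13 libraries), at the 90.6th percentile of 13319 expressed genes. The fission dynamin gene Dnm1l followed at 22.7 ± 1.98 RPKM, then the protease gene Yme1l1 at 19.0 ± 2.32 and Opa1 at 11.4 ± 1.03 RPKM. Fis1 was above Dnm1l, Dnm1l above Yme1l1 and Yme1l1 above Opa1 in 13 of 13 libraries. Mfn2 stood at 10.6 ± 1.42 RPKM and Opa1 was the higher of the pair in 8 of 13 libraries, 6 of 6 in DN3 and 2 of 7 in DN4. Oma1 had 8.74 ± 1.62 RPKM, Mief1 7.39 ± 0.900, Mff 7.19 ± 0.700 and Mfn1 6.18 ± 0.531. Mief1 was above Mff in 8 of 13 libraries, so that this order did not exceed the spread between libraries. Mief2 was lowest at 4.12 ± 1.14 RPKM, the 37th percentile. These levels count every transcript of a gene over its whole merged exon length, and genes with long alternative exons may read low.

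**Figure D2:**
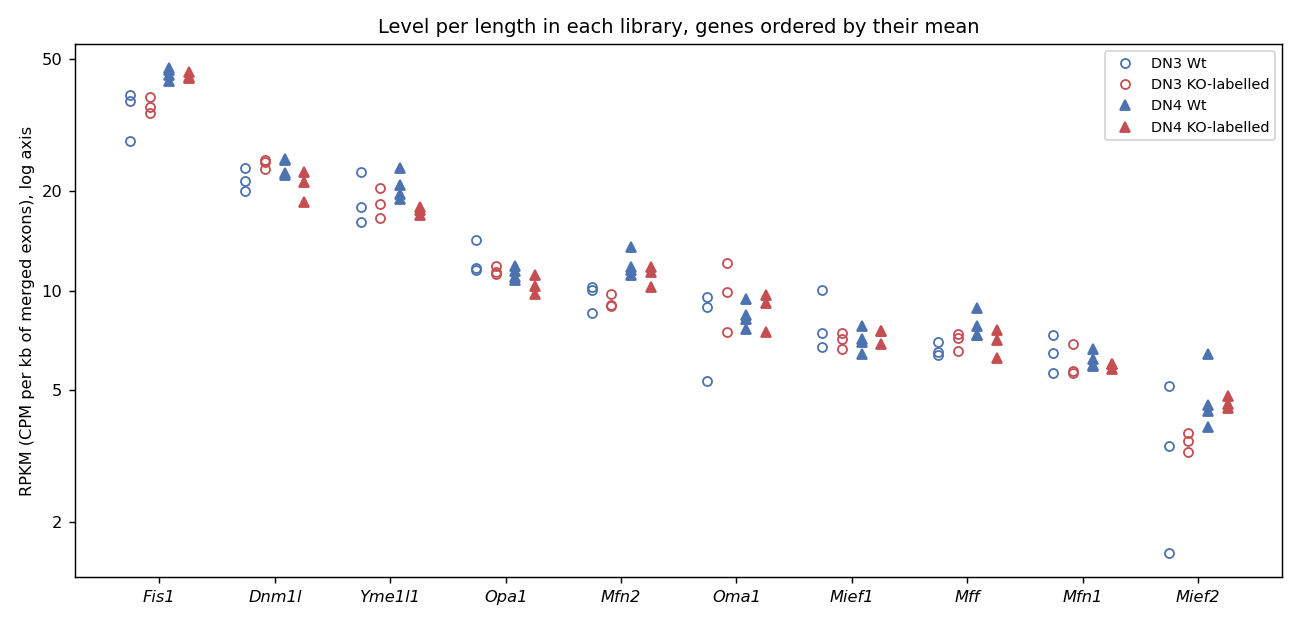
Level per length (RPKM, log axis) of the 10 genes in each library, ordered from the highest to the lowest mean. Each point is 1 library, with open circles for DN3, triangles for DN4, blue for Wt and red for KO-labelled, and the means run from 40.7 for Fis1 to 4.12 for Mief2.

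Several of these genes varied little between libraries of a group. The within-group SD of log2 CPM was 0.104 for Opa1, lower than in all but 4.26% of the genes ranked, and 0.107 for Dnm1l, 0.11 for Mff and 0.112 for Mfn2. Oma1 and Mief2, the members with the fewest counts, had an SD of 0.309 and 0.445. Without the DN3 library of WT05 these fell to 0.209 and 0.269.

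Between the genotypes, none of the 10 genes passed the test. In DN3, 0 of 10 were called by edgeR's quasi-likelihood test at an adjusted p of 0.05, with 0% of 12105 genes called, and 0 of 10 had an unadjusted p under 0.05, against 1.39% of all genes. In DN4, 0 of 10 were called, with 0.0535% of 13084 genes called, and 0 of 10 had an unadjusted p under 0.05, against 5.46%. DESeq2 and limma-voom also called 0 of 10 at each stage. The median size of the log2 fold change was 0.0884 over the 10 genes and 0.136 over all genes in DN3, and 0.0816 and 0.136 in DN4. In DN3 the genotypes overlapped for all 10 genes, where 6.52% of all genes did not overlap.

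Neither mitofusin gene differed by more than its error between the genotypes. Mfn1, for outer membrane fusion, was at 34.5, 34.9 and 42.2 CPM in KO-labelled DN3 and 45.1, 39.7 and 34.5 CPM in Wt DN3, and at 35.5, 36.7 and 36.65 CPM in KO-labelled DN4 and 40.6, 36.2, 38.1 and 36.5 CPM in Wt DN4. Its log2 fold change was -0.10 in DN3 and -0.03 in DN4, with a DN4 interval of -0.246 to 0.190. Mfn2 was at 50.6, 47.0 and 46.6 CPM in KO-labelled DN3 and 44.5, 52.3 and 53.3 CPM in Wt DN3. The Mfn2 log2 fold changes of -0.07 in DN3 and -0.07 in DN4 had intervals of -0.366 to 0.228 and -0.297 to 0.151. The DN3 value was 0.00047 for Mfn1 and -0.14 for Mfn2 without the DN3 library of WT05.

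Yme1l1, the i-AAA protease gene, was the single member whose DN4 genotypes did not overlap, against 7.11% of all genes. It stood at 143.2, 140.6 and 135.9 CPM in KO-labelled DN4 and at 188.7, 167.7, 157.0 and 151.7 CPM in Wt DN4. The log2 fold change of -0.22 (SE 0.100, interval -0.445 to 0.0145) had an unadjusted p of 0.0629 and an edgeR adjusted p of 0.883. In DN3 Yme1l1 ranged from 132.5 to 163.1 CPM in KO-labelled and from 128.9 to 182.6 CPM in Wt libraries, which overlap, and the DN3 log2 fold change of -0.05 was 0.11 without the DN3 library of WT05. Leaving out DN4 libraries one at a time gave log2 fold changes of -0.27 to -0.16, and leaving out both WT40 and WT46 gave -0.24. The libraries of WT40 and WT46 had 0 to 2 counts of Xist, against 10672 to 20604 in each library of the other mice, so that the 3 KO-labelled mice were matched in Xist by WT05 and WT48 alone.

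Oma1, the stress-activated OPA1 protease gene, was at 16.1, 25.95 and 21.3 CPM in KO-labelled DN3 and at 11.4, 19.2 and 20.6 CPM in Wt DN3. The DN3 log2 fold change was 0.27 (SE 0.260), and 0.076 without the DN3 library of WT05, which had the lowest level. In DN4 the groups overlapped, at 16.1 to 20.8 CPM in KO-labelled and 16.5 to 20.2 CPM in Wt libraries, with a log2 fold change of 0.09 (SE 0.132).

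Dnm1l, the fission dynamin gene, had genotype differences of opposite sign at the 2 stages, neither past the test. In DN3 it was at 129.1, 121.2 and 127.3 CPM in KO-labelled and at 122.0, 111.6 and 104.5 CPM in Wt libraries, and in DN4 at 118.6, 96.2 and 110.6 CPM in KO-labelled and at 130.1, 118.3, 129.5 and 116.2 CPM in Wt libraries. The log2 fold change was 0.15 in DN3 (SE 0.124, adjusted p = 1) and -0.15 in DN4 (SE 0.111, adjusted p = 0.911) by edgeR, and the DN3 value was 0.22 without the DN3 library of WT05. Of its receptor genes, Fis1 had log2 fold changes of 0.04 in DN3 and 0.01 in DN4, the second with an interval of -0.167 to 0.189, and the DN3 value was -0.075 without the DN3 library of WT05. The other receptor genes had log2 fold changes of 0.08 and -0.13 for Mff, -0.19 and 0.08 for Mief1, and -0.0073 and -0.02 for Mief2, in DN3 and DN4. Without the DN3 library of WT05, the DN3 values of Mief1 and Mief2 were -0.0027 and -0.28, and without that of WT48 the value of Mief2 was 0.42.

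None of 5 ratios between these genes separated the genotypes at both stages. The ratio of Opa1 to Dnm1l per length, which does not depend on scaling, was 0.453, 0.511 and 0.465 in KO-labelled DN3 and 0.605, 0.544 and 0.576 in Wt DN3. In DN4 it was 0.429, 0.560 and 0.526 in KO-labelled and 0.460, 0.524, 0.442 and 0.484 in Wt libraries. The DN3 groups did not overlap and the DN4 groups did, as for summed fusion over summed fission genes (0.328 to 0.353 in KO-labelled and 0.361 to 0.430 in Wt DN3). The ratio of Oma1 to Yme1l1 in DN4 was 0.420 to 0.553 in KO-labelled and 0.392 to 0.434 in Wt libraries, which overlap. Ratios were described and not tested.

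**Figure D3:**
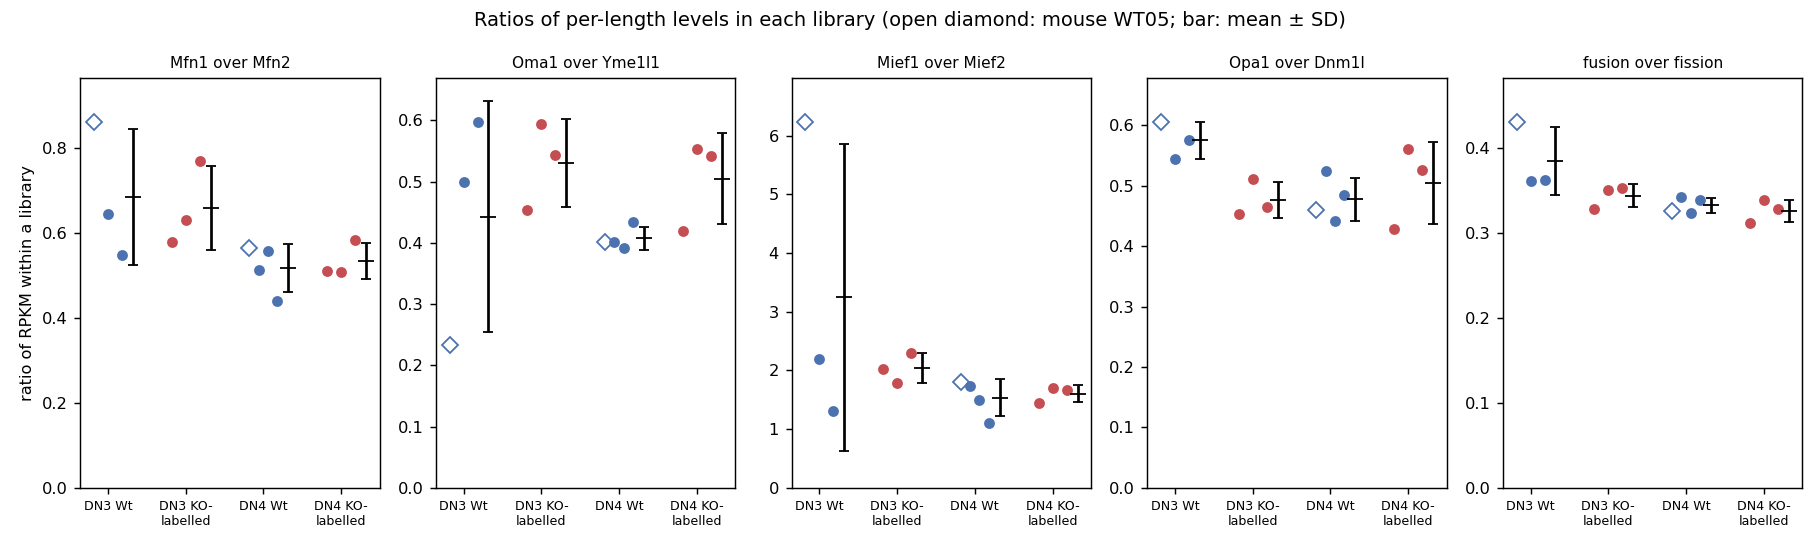
Ratios of per-length levels within each library, for Mfn1 over Mfn2, Oma1 over Yme1l1, Mief1 over Mief2, Opa1 over Dnm1l, and the summed fusion genes (Opa1, Mfn1, Mfn2) over the summed fission genes (Dnm1l, Fis1, Mff, Mief1, Mief2). Points are libraries, open diamonds the mouse WT05 and bars the mean ± SD, and the fusion to fission ratio runs from 0.430 in the DN3 library of WT05 to 0.312 in the DN4 library of KO45.

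From DN3 to DN4, 0 of the 10 genes passed the edgeR test in Wt mice, where 22.9% of 12691 genes did, and 0 of 10 passed in KO-labelled mice, where 18.6% of 12580 genes did. DESeq2 and limma-voom called 0 of 10 as well. Unadjusted p-values under 0.05 were found for 2 genes in Wt, Mfn2 and Fis1, against 35.5% of all genes, and for 1 gene in KO-labelled mice, Fis1, against 33.0%. The median size of the log2 fold change was 0.185 over the 10 genes and 0.318 over all genes in Wt, and 0.171 and 0.293 in KO-labelled mice. Stages did not overlap for 3 of 10 genes in Wt (Mfn2, Fis1 and Mff), against 34.8% of all genes, and for 5 of 10 in KO-labelled mice (Opa1, Mfn2, Dnm1l, Fis1 and Mief2), against 39.1%.

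Fis1, the anchored fission receptor gene, was higher in DN4. It stood at 48.6, 66.8 and 64.2 CPM in Wt DN3 and 80.6, 73.8, 76.9 and 79.8 CPM in Wt DN4, and at 65.9, 61.6 and 59.1 CPM in KO-labelled DN3 and 75.8, 78.4 and 75.5 CPM in KO-labelled DN4. Each of the 7 DN4 libraries was above each of the 6 DN3 libraries. The share of all genes so separated over both genotypes is not given here. Within a genotype, 34.8% of genes in Wt and 39.1% in KO-labelled mice did not overlap between stages, in either direction. The log2 fold change was 0.35 in Wt (SE 0.128, adjusted p = 0.0872) and 0.27 in KO-labelled mice (SE 0.104, adjusted p = 0.109), and missed the edgeR threshold in both. With the mouse as a block, Fis1 passed in KO-labelled mice (adjusted p = 0.0474) and not in Wt (0.38, adjusted p = 0.153). Without the DN3 library of WT05 the Wt value was 0.21.

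Mfn2, which fuses outer membranes and tethers mitochondria to the endoplasmic reticulum, had a like pattern. In Wt it went from 44.5, 52.3 and 53.3 CPM in DN3 to 61.2, 60.0, 58.1 and 70.5 CPM in DN4, and in KO-labelled mice from 50.6, 47.0 and 46.6 CPM to 59.1, 61.4 and 53.4 CPM. Every DN4 library was higher than every DN3 library, the closest being KO51 in DN4 at 53.4 CPM and WT48 in DN3 at 53.3 CPM. As for Fis1, the share of all genes so separated over both genotypes is not given. The log2 fold changes were 0.29 in Wt (SE 0.120, adjusted p = 0.121) and 0.24 in KO-labelled mice (SE 0.111, adjusted p = 0.168), by edgeR. Without the DN3 library of WT05 the Wt value was 0.21.

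Mief2, which encodes the DRP1 receptor MiD49, was at 4.39, 9.20 and 13.98 CPM in Wt DN3 and 10.5, 12.3, 11.75 and 17.55 CPM in Wt DN4. In KO-labelled mice it was at 9.57, 10.1 and 8.83 CPM in DN3 and 13.03, 12.0 and 12.35 CPM in DN4. The KO-labelled stages did not overlap, and the Wt stages did. The log2 fold change was 0.43 in Wt (SE 0.349), 0.13 without the DN3 library of WT05, and 0.37 in KO-labelled mice (SE 0.178, adjusted p = 0.193).

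Since the stages came from the same mice, the difference was also read within each mouse. Mfn2, Fis1 and Mief2 were higher in DN4 in 6 of 6 mice, against 21.9% of all genes higher in 6 of 6. The log2 differences were 0.152 to 0.459 for Mfn2, 0.202 to 0.729 for Fis1 and 0.246 to 1.22 for Mief2, with the largest in WT05 for each. Opa1 was lower in DN4 in 6 of 6 mice, by -0.302 to -0.026 log2 units, against 17.6% of all genes lower in 6 of 6. Scaled by library totals in place of TMM, the Wt stage log2 fold change of Opa1 was 0.054. The remaining genes had mice on either side of 0.

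**Figure D4:**
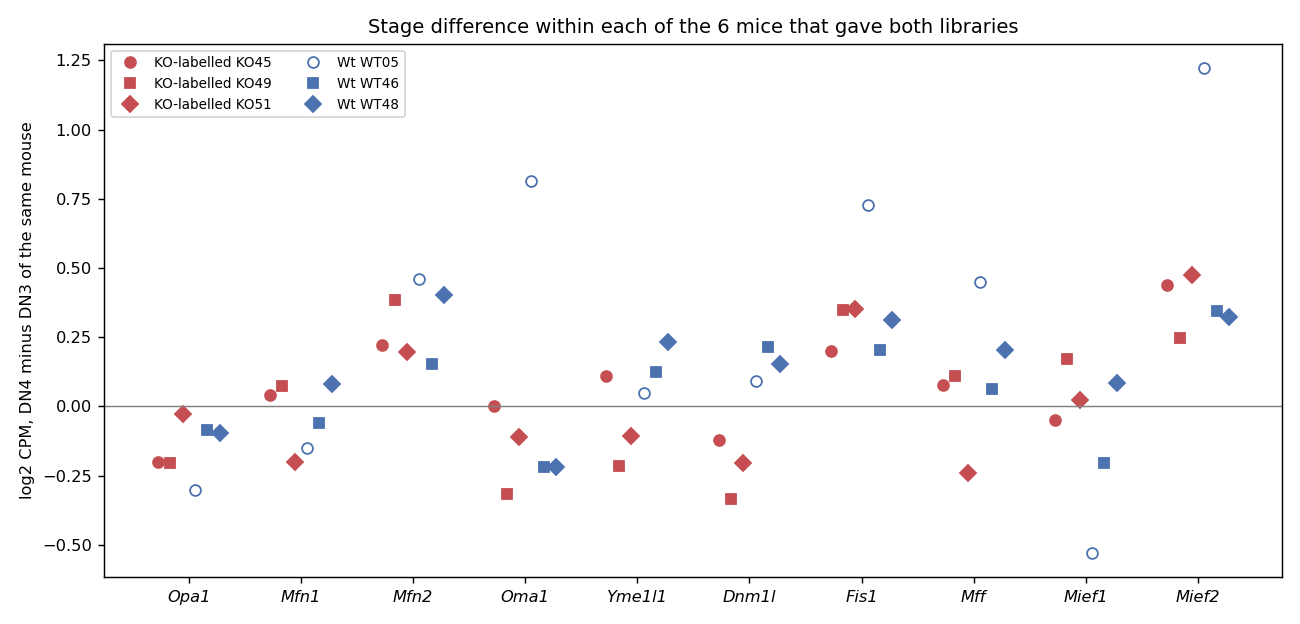
Difference in log2 CPM between the DN4 and DN3 libraries of the same mouse, for the 10 genes in the 6 mice that gave both. Red symbols are KO-labelled and blue symbols Wt mice, with WT05 open, and the points for Mfn2, Fis1 and Mief2 all lie above 0 and those for Opa1 all below it.

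With the mouse as a block, 2 of 10 genes passed in KO-labelled mice, where 35.8% of genes did. Fis1 rose (log2 fold change 0.27, edgeR adjusted p = 0.0474) and Dnm1l fell (-0.24, adjusted p = 0.0417). Without KO45 the block called Fis1, and without KO49 or without KO51 it called 0 of 10. In Wt the block called 0 of 10, with 18.7% of genes called, and 1 fit over all 13 libraries called Mfn2 and Fis1 in Wt, with 26.6% of genes called. A fit over the 6 mice of both genotypes, with the mouse as a block and chosen after the values were seen, called 3 of 10, all higher in DN4, against 41.0% of 13323 genes called and 23.0% called higher. The log2 fold changes were 0.30 for Mfn2 (SE 0.0768, adjusted p = 0.0100), 0.35 for Fis1 (SE 0.0849, adjusted p = 0.00746) and 0.47 for Mief2 (SE 0.143, adjusted p = 0.0231). Opa1 had -0.15 (SE 0.0696, adjusted p = 0.107). Leaving out each mouse, Mfn2 and Fis1 passed in 6 of 6 fits, and Mief2 in 4 of 6, missing without KO45 and without KO51. Without the block, Mfn2 and Fis1 passed and Mief2 did not (0.44, SE 0.2057, edgeR adjusted p = 0.1138). Scaled by library totals in place of TMM, this fit called 0 of 10.

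The summed B-cell level was also higher in every DN4 than in every DN3 library. The sum of log2 CPM over the B-cell markers served as a covariate in the 6-mouse fit. It separates the stages as well, so that the fit could not tell stage and B-cell level apart. In that fit 0 of 10 genes passed and 1 of all genes did. The log2 fold change was then -0.25 for Mfn2, 0.01 for Fis1 and 0.25 for Mief2, and the SE of Mfn2 went from 0.0768 to 0.424. In the Wt fit with this covariate Mfn2 had -0.14 and Mief2 -0.36, and in the KO-labelled fit Mfn2 had -0.08, all reversed in sign and none past the test. Opa1 reversed as well, to 0.025 in Wt and 0.020 in KO-labelled mice. In the 3 DN4 libraries with the lowest B-cell level, KO51 (366 CPM), WT40 (445 CPM) and WT46 (615 CPM), Fis1 stood at 75.5, 73.8 and 76.9 CPM, above the DN3 maximum of 66.8 CPM. Mfn2 stood at 53.39, 60.0 and 58.1 CPM in these 3 libraries, also above its DN3 maximum of 53.3 CPM. Mief2 stood at 12.35, 12.3 and 11.75 CPM, below its DN3 maximum of 13.98 CPM. Mfn2 and Mief2 had their highest level, 70.5 and 17.55 CPM, in the DN4 library with the most B-cell markers, WT48 at 4090 CPM. Even the 3 DN4 libraries with the lowest B-cell level were above the DN3 maximum of 81.4 CPM for these markers. The part of B cells in the stage differences was not tested.

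The ratio of Mfn1 to Mfn2 per length was lower in DN4 in 6 of 6 mice, by -0.610 to -0.181 log2 units, and that of Mief1 to Mief2 in 6 of 6, by -1.79 to -0.0776. Mfn1 itself, at 34.5 to 45.1 CPM in DN3 and 35.5 to 40.6 CPM in DN4, overlapped between the stages. Summed fusion over summed fission genes was 0.384 ± 0.0399 in Wt DN3 (SD, n = 3), 0.344 ± 0.0135 in KO-labelled DN3 (n = 3), 0.332 ± 0.00889 in Wt DN4 (n = 4) and 0.326 ± 0.0130 in KO-labelled DN4 (n = 3). The ratio was lower in DN4 in 6 of 6 mice, by -0.400 to -0.0483 log2 units, with the largest drop in WT05. The DN3 library of WT05 had a ratio of 0.430, and those of WT46 and WT48 had 0.361 and 0.362. Fis1 made up 40.5% to 54.9% of the summed fission level. With Fis1 left out of the sum, the ratio was lower in DN4 in 3 of 6 mice, the Wt mice, with log2 differences of -0.121 to 0.181.

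The stage difference was then compared between the genotypes. The interaction called 0 of 10 genes with edgeR, with 0% of 13361 genes called, and 0 of 10 with DESeq2 and limma-voom. At an unadjusted p under 0.05, 1 of 10 was found, Dnm1l, against 3.59% of all genes. Dnm1l was lower in DN4 in the mice KO45, KO49 and KO51, by -0.122, -0.333 and -0.203 log2 units, and higher in WT05, WT46 and WT48, by 0.0922, 0.215 and 0.153. This split by genotype was met by 1.27% of all genes. The interaction was -0.35 (SE 0.145, interval -0.664 to -0.0355, edgeR adjusted p = 1), and -0.37 with the mouse as a block (adjusted p = 0.901). Opa1 had an interaction of -0.0039 (SE 0.142).

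**Figure D5:**
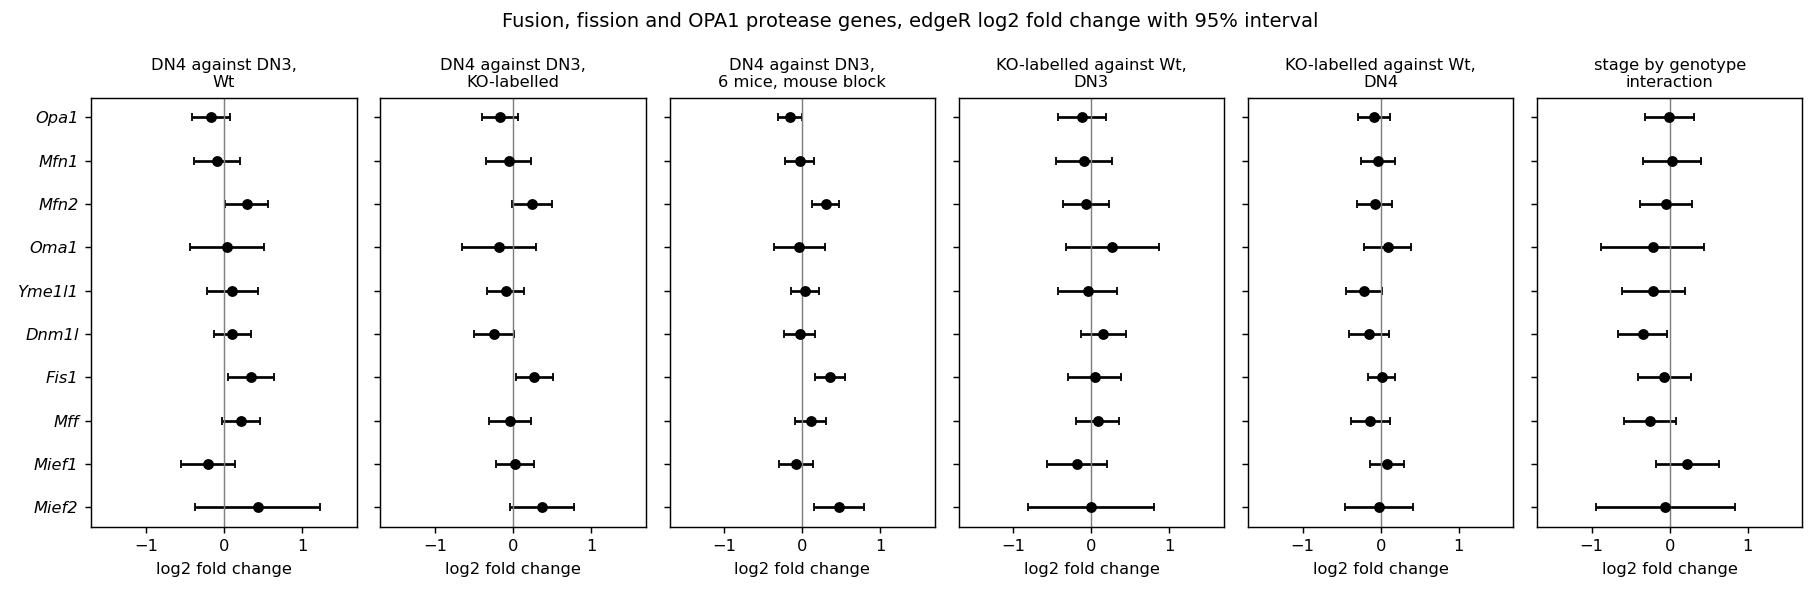
Log2 fold change with its 95% interval (edgeR) for the 10 genes in 6 fits, the stage comparison in Wt, in KO-labelled mice and over 6 mice with a mouse block, the genotype comparison in DN3 and in DN4, and the interaction. The vertical line marks 0, and over 6 mice the intervals of Mfn2, Fis1 and Mief2 lie above it.

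Partners of these genes were read from 6 lists. Of 17 fusion regulators, 1 rose and 1 fell from DN3 to DN4 in Wt, and 0 rose and 1 fell in KO-labelled mice, with a median log2 fold change of -0.187 and -0.201, against -0.028 and -0.025 over all genes. The medians of the fission regulators (-0.14 and -0.128) and of the genes of general mitochondrial content (-0.0978 and -0.194) were also below those of all genes. Those of the kinases and phosphatases (0.148 and 0.107) and of the stress relay genes (0.178 and 0.0703) were above. The transport genes had -0.11 in Wt, below, and -0.016 in KO-labelled mice, above. Of 16 fission regulators tested, 2 rose in Wt mice and 1 in KO-labelled ones. Of 16 kinases and phosphatases of DRP1 and MFF, 3 rose and 1 fell in Wt, and 1 rose and 2 fell in KO-labelled mice. Among 19 genes of general mitochondrial content 3 fell in Wt and 1 in KO-labelled mice. None of the 8 transport genes and none of the stress relay genes tested (7 in Wt, 9 in KO-labelled mice) was called by edgeR, where 2 transport and 2 stress relay genes in Wt (35.5% of all genes) and 1 and 2 in KO-labelled mice (33.0%) had an unadjusted p under 0.05. The edgeR calls are to be read against 22.9% and 18.6% of all genes. In Wt, DESeq2 called 4 fusion regulators, 3 fission regulators, 6 kinases and phosphatases, 3 content, 2 stress relay and 1 transport gene, and limma-voom 3, 2, 3, 3, 0 and 0. In KO-labelled mice these were 2, 2, 3, 2, 0 and 1 by DESeq2 and 0, 1, 2, 1, 0 and 0 by limma-voom. The shares of all genes called by these tools are not given here, so their counts cannot be set against them. In the genotype comparisons and the interaction, edgeR and limma-voom called 0 genes of any list, and DESeq2 called 1 stress relay gene, Asns, in DN3 and in DN4 and 0 in the interaction. By edgeR, 3 of 84 list genes tested (3.57%) had an unadjusted p under 0.05 in DN3, against 1.39% of all genes, 6 of 84 (7.14%) in DN4, against 5.46%, and 4 of 84 (4.76%) in the interaction, against 3.59%. The 3 in DN3 were stress relay genes, as were 3 of the 6 in DN4. Over the 6 mice with a mouse block, 6 fusion regulators and 6 content genes fell and 0 of either rose, 2 fission regulators rose and 1 fell, 4 kinases and phosphatases rose and 2 fell, and 3 stress relay genes and 1 transport gene rose, against 41.0% of all genes called.

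Inf2 and Akap1 were called in the same direction in both stage comparisons. Inf2, an endoplasmic reticulum formin that primes sites of fission, stood at 8.03 ± 0.447 CPM in Wt DN3 (SD, n = 3), 27.0 ± 5.29 in Wt DN4 (n = 4), 8.43 ± 2.31 in KO-labelled DN3 (n = 3) and 22.4 ± 7.42 CPM in KO-labelled DN4 (n = 3). It rose by 1.73 log2 units in Wt (adjusted p = 0.000741) and 1.40 in KO-labelled mice (adjusted p = 0.01845). Akap1, which anchors protein kinase A at the outer membrane where the kinase restrains DRP1, went from 80.9 ± 7.09 to 40.9 ± 7.39 CPM in Wt and from 70.4 ± 7.74 to 46.2 ± 9.53 CPM in KO-labelled mice. It changed by -1.01 (adjusted p = 0.00270) and -0.63 log2 units (adjusted p = 0.0373), by edgeR. The other calls were chosen for naming after their values were seen. In Wt, Slc25a46 rose by 0.43, and Prkaca, Ppp3ca and Rala rose by 0.51, 1.41 and 0.63, while Phb, Tomm40, Hspd1 and Hspa9 changed by -0.42, -0.43, -0.53 and -0.49 log2 units. In KO-labelled mice Mapk3 rose by 0.46, and Pld6, Pim1 and Tomm70a changed by -1.65, -0.49 and -0.43 log2 units. Slc25a46 is in 2 of the lists, fusion and fission, and is counted in each. With the DN3 library of WT05 left out, Inf2 (1.73), Akap1 (-0.94), Slc25a46 (0.42), Rala (0.50), Phb (-0.51), Tomm40 (-0.46) and Hspa9 (-0.50) passed in Wt. Prkaca (0.36, adjusted p = 0.0503), Ppp3ca (1.47, adjusted p = 0.0590) and Hspd1 (-0.46, adjusted p = 0.0721) did not, by edgeR.

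Asns, which encodes asparagine synthetase and is an ATF4 target in the stress relay that OMA1 can start through DELE1, had the highest genotype log2 fold change of the lists. It was picked after its values were seen. In DN3 it stood at 5.03, 11.7 and 4.81 CPM in the KO-labelled libraries KO45, KO49 and KO51 and at 1.46, 0.619 and 1.21 CPM in the Wt libraries WT05, WT46 and WT48. In DN4 it stood at 2.36, 11.3 and 8.07 CPM in KO-labelled libraries and at 0.500, 0.488, 0.710 and 0.406 CPM in the Wt libraries WT05, WT40, WT46 and WT48. The genotypes did not overlap at either stage, and Wt libraries held 4 to 11 counts. The call depended on the tool. By edgeR the log2 fold change was 2.78 in DN3 (SE 0.534, adjusted p = 1) and 3.76 in DN4 (SE 0.533, adjusted p = 0.109), by the DESeq2 Wald test 2.79 (adjusted p = 0.00684) and 3.78 (adjusted p = 5.66e-07), and by limma-voom 2.64 (adjusted p = 1) and 3.43 (adjusted p = 0.720). The edgeR value in DN3 was 2.96 (SE 0.5725) without the DN3 library of WT05. Oma1 had edgeR log2 fold changes of 0.27 and 0.09, and a link between it and Asns was not tested. Of the same list, Trib3 (2.12 and 1.76, mean 1.36 CPM) and Atf5 (0.56 and 0.57) also had an edgeR unadjusted p under 0.05 at both stages. Neither passed after adjustment. Ppp1r15a (-0.45 and -0.19) and Eif2ak1 (-0.017 and -0.16) lay on the other side of 0.

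The genes most like Opa1 over the 13 libraries by Pearson's r of log2 CPM were Xpo7 (r = 0.946), mt-Tp (0.946), mt-Nd6 (0.937), Fam120a (0.932) and Caprin1 (0.926). Without the DN3 library of WT05 the first 4 of these were 0.864, 0.869, 0.845 and 0.842, and that of Caprin1 was lower still. Among the other members, Mief1 had the highest r with Opa1, 0.689, and 0.0926 without that library. The lowest were those of Mief2 (-0.772, and -0.398 without it) and Fis1 (-0.769 and -0.494). Oma1 went from -0.352 to 0.474. All libraries share the stages and depth differences, and these values are descriptions.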

How the data were processed

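Per the labels, poly(A) RNA of freshly sorted DN3 and DN4 thymocytes was made into stranded libraries. The submitters' processing notes name STAR, featureCounts, deepTools, DESeq2 and mm10, with no versions, and the strand setting and annotation release are not given in the sources used here. The authors deposited raw read counts per gene, not normalized, in 1 table for the 13 libraries.

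Of 47937 identifiers, 47310 were found in GENCODE M21 without their version, which gave symbols and exon lengths. Genes past filterByExpr (minimum count 10) were tested with edgeR 4.0.16 in R 4.3.3, on TMM-scaled library sizes, by the quasi-likelihood test, with Benjamini-Hochberg adjustment over all genes tested and a threshold of 0.05. Each comparison used the libraries of its own groups, and the interaction used all 13. CPM used TMM-scaled library sizes over 13 libraries, RPKM is CPM per kb of merged exons, and log2 CPM has a prior count of 2. Intervals are at 95%.

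Depth ran from 5926848 to 14148661 counts per library (median 10023044). Members held 15 to 182 counts of Mief2 and 382 to 1178 of Opa1 per library. No 2 libraries of a group agreed within sampling noise. DN3 and DN4 libraries with the same number were read as 1 mouse, and their deviations from the group means correlated over 13361 genes by 0.124 to 0.46 in the 6 mice. Replicates within a group are separate mice.

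Alternatives were DESeq2 size factors, library totals, other filters, the DESeq2 1.42.0 Wald test, limma-voom (limma 3.58.1), removal of ribosomal RNA-like genes, 1 fit over 13 libraries, B-cell markers as a covariate, a mouse block, and leaving out libraries. Fits over 6 mice and blocks with a mouse left out, list genes by the other tools or without the DN3 library of WT05, and the fusion to fission ratio without Fis1 were added after seeing the data. The members and lists were chosen with earlier results of these data known. All 10 members are named, with list genes called in the same direction in both stage comparisons and the 5 genes most correlated with Opa1. Scripts were tested on simulated data.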

Additional observations from a re-analysis of the deposited data

Results flagged for a closer look

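Dnm1l, the gene of the fission dynamin DRP1, differed between stages in opposite directions in the genotypes. DN4 was lower than DN3 in each of the 3 KO-labelled mice, by -0.122 to -0.333 log2 units, and higher in each of the 3 Wt mice with both stages, by 0.0922 to 0.215. The interaction was -0.35 on the log2 scale (edgeR unadjusted p = 0.0318, adjusted p = 1), so that it did not pass after adjustment over all genes. Leaving out each library gave -0.42 to -0.27. Of the 10 genes tested for such opposite directions, Dnm1l was the single one that met it. Among all genes, 1.27% split by genotype in this way, and 3.59% had an interaction with an edgeR unadjusted p under 0.05. None of the 15 levels and ratios tested in Wt DN4, the group of 4 libraries, had a library far from the rest.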

How the results depend on the processing

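Over the alternatives to the stage, genotype and interaction fits, 882 log2 fold changes of the 10 genes were compared, with the 6-mouse fit left aside. Of these, 815 kept their sign and 67 changed it, none of the 67 past the threshold with either sign, and 5 passed the test only in an alternative. In the 6-mouse fit, Mfn2 passed at 0.30 and reversed to -0.25 with the B-cell covariate, where it did not pass. Mief2 and Oma1 had the fewest counts, and no test of the smallest detectable difference is given. The cause of the changes below was not tested.

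Called members in the stage comparisons moved from 0 to 2 in Wt with all 13 libraries in 1 fit (Mfn2 and Fis1), and from 0 to 2 in KO-labelled mice with the replicate block (Dnm1l and Fis1), where leaving out KO45 gave 1 and leaving out KO49 or KO51 gave 0. Over the 6 mice, the 3 calls became 2 with no replicate block, which lost Mief2 (0.44, adjusted p = 0.1138 by edgeR), 0 with library totals and 0 with B-cell markers as a covariate. The block changed no call in the Wt stage comparison or the interaction.

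With library totals, which give the DN3 library of WT05 its full count, the Wt stage log2 fold change reversed to 0.054 for Opa1, 0.12 for Mfn1 and 0.037 for Mief1. The DN3 genotype value became 0.16 for Opa1, 0.17 for Mfn1, 0.15 for Mfn2, 0.24 for Yme1l1, 0.11 for Mief1 and 0.14 for Mief2, and the interaction -0.19 for Mfn1 and -0.021 for Mief1. The B-cell covariate could not be told apart from stage. With it the Wt stage value became 0.025 for Opa1, -0.14 for Mfn2, -0.27 for Oma1 and -0.36 for Mief2. In KO-labelled mice it became 0.020 for Opa1, 0.19 for Mfn1, -0.082 for Mfn2 and 0.071 for Dnm1l.

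Other settings also reversed values. The DN4 genotype value of Fis1 became -0.0027 with DESeq2 size factors, -0.0045 with no filter, -0.0028 with the DESeq2 test, -0.0087 without ribosomal RNA-like genes, -0.0225 in 1 fit over 13 libraries and -0.0226 without WT40 and WT46. Mief2 became 0.0045 in DN3 with no filter and with the DESeq2 test, and 0.011 in DN4 with limma-voom. With limma-voom the Wt stage value of Oma1 became -0.018 and the interaction of Mfn1 -0.0030. The interaction of Opa1 became 0.016 with the replicate block and 0.059 without WT40 and WT46, where that of Mfn1 became -0.0041.

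Among the genes of the pathway lists, the DESeq2 test called Asns between the genotypes in DN3 and in DN4, which edgeR and limma-voom did not. Stage calls of the lists by each tool differed as given above, and those lost in Wt without the DN3 library of WT05 were Prkaca, Ppp3ca and Hspd1. The fall of the fusion to fission ratio in 6 of 6 mice became 3 of 6 without Fis1.

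Leaving out each library in turn, values that reversed ranged as follows. The stage value ranged from -0.17 to 0.19 for Oma1 in Wt, and in KO-labelled mice from -0.12 to 0.018 for Mfn1, -0.13 to 0.021 for Mff and -0.036 to 0.042 for Mief1. The DN3 genotype value ranged from -0.20 to 0.00047 for Mfn1, -0.15 to 0.11 for Yme1l1, -0.075 to 0.13 for Fis1 and -0.28 to 0.42 for Mief2. The DN4 genotype value ranged from -0.018 to 0.032 for Fis1 and -0.12 to 0.13 for Mief2. The interaction ranged from -0.085 to 0.045 for Opa1, -0.045 to 0.13 for Mfn1, -0.093 to 0.044 for Mfn2, -0.38 to 0.0022 for Oma1, -0.16 to 0.068 for Fis1 and -0.47 to 0.24 for Mief2. In the 5 comparisons without a block, 0 of the 10 genes were called with any 1 library left out.

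Over all genes, counts that moved by more than 1.5 times were, for the Wt stage, 2903 to 1782 with library totals, 218 with the B-cell covariate and 1723 without WT40 and WT46, and for the KO-labelled stage, 2338 to 4499 with the block and 0 with the B-cell covariate. The blocked Wt count of 2340 became 1021 without WT48. Against the 2338 without a block, the blocked KO-labelled count was 3565 without KO45 and 3916 without KO51. Over the 6 mice, 5460 became 3548 with library totals and 1 with the B-cell covariate. The DN4 genotype count of 7 became 11 with no filter, 51 with the DESeq2 test and 1 without WT40 and WT46. The DN3 genotype count of 0 became 3 with the DESeq2 test, and 1 with no filter or without WT40 and WT46, and the interaction count of 0 became 2 with the DESeq2 test. Leaving out 1 library moved the Wt stage count to 1845 without WT05 in DN4 and 1877 and 1918 without WT46 and WT48 in DN3. It moved the KO-labelled stage count to 1407 and 1458 without KO49 and KO51 in DN3 and 1522 without KO49 in DN4, the DN3 genotype count to 1 without WT46, and the DN4 genotype count to 2 without KO45 and to 0 without KO49, KO51, WT05, WT40 or WT46.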
